A study of Sus scrofa with 9 samples.

Results

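The complement protein C1q is built from A, B and C chains, encoded by C1QA, C1QB and C1QC. The 3 genes were chosen by name, from probe sets to which the array annotation gives C1QA, C1QB or C1QC as the single symbol. If a gene had several such probe sets, the brightest on average across the 9 arrays stood for it. All 3 genes were found, out of 12355 genes with a named probe set. C1QA and C1QC had 1 probe set each and C1QB had 2, with mean log2 intensities of 9.38 and 7.14, of which the brighter represents the gene and the dimmer is given beside it. That mean over all arrays ignores the groups, and it is used here only to choose and describe.

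Gene expression was measured in kidney biopsies of 9 male Yorkshire pigs of 30 kg, with 1 array per animal. In every animal the right kidney had 30 min of warm ischemia, was removed, flushed and put back into the same animal, and the left kidney was taken out. The No Storage kidneys (n = 3) were put back at once, the SCS kidneys (n = 3) after 8 h of static cold storage, and the NEVKP kidneys (n = 3) after 8 h of normothermic ex vivo kidney perfusion, which pumps warm perfusate through the organ outside the body. All biopsies date from post-operative day 3, so every group shares the ischemia, the flush and the surgery, and No Storage is not a healthy kidney.

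C1q is the recognition part of the complement component C1. It binds antibody in immune complexes, pentraxins and the surface of dying cells, and it then activates the proteases C1r and C1s, which cleave C4 and C2 and start the classical pathway. Most complement proteins of plasma come from the liver, whereas C1q is made chiefly by macrophages and dendritic cells, so that its transcripts are commonly used as macrophage markers. In the kidney, C1q is also known for deposits in immune glomerular disease, for the clearance of apoptotic cells and for complement activation after ischemia and reperfusion.

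Values are log2 intensities, on which a difference of 1 is a doubling. Array medians ranged from 5.70 to 5.80, and pairs of arrays correlated at 0.974 to 0.991 across probe sets. SCS replicate 2 and NEVKP replicate 2 had the lowest array weights, 0.46 and 0.57, against 0.93 to 1.62 for the others. None of the 10 measured proximal tubule genes and 11 genes of thick limb, distal tubule and collecting duct was dim, meaning a mean in the lowest 25% of probe sets. Precision is limited by having 3 arrays per group.

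All C1Q probe sets lay well inside the measurable range. The mean of C1QA over the 9 arrays was 8.38 (higher than 86.1% of probe sets), that of C1QB 9.38 (94.1%) and that of C1QC 8.48 (87.0%). The second C1QB probe set, at 7.14, exceeded 70.0%. The 3 genes follow one another in the order C1QA, C1QC, C1QB in the RefSeq gene table of the pig assembly Sscrofa11.1. The nearest named genes on either side are the ephrin receptor genes EPHA8 and EPHB2. EPHA8 differed by 0.04 between SCS and No Storage and by -0.07 between NEVKP and SCS (log2). EPHB2 differed by 0.11 and 0.19 in the same comparisons. Between NEVKP and No Storage EPHA8 differed by -0.03 and EPHB2 by 0.30, the latter close to the C1Q values given next.

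C1QA, which encodes the A chain, measured 8.44, 8.43 and 8.45 in No Storage replicates 1, 2 and 3. It measured 7.74, 7.78 and 8.00 in SCS and 8.07, 9.48 and 9.05 in NEVKP. All SCS kidneys lay below all No Storage kidneys. NEVKP replicates 2 and 3 lay above every other kidney, while NEVKP replicate 1 lay between SCS and No Storage.

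C1QB, which encodes the B chain, measured 9.52, 9.50 and 9.38 in No Storage, 8.68, 8.59 and 9.25 in SCS, and 9.23, 10.26 and 9.996 in NEVKP. SCS and No Storage again did not overlap, and NEVKP replicate 1 fell just under SCS replicate 3. The second C1QB probe set gave 7.10, 7.33 and 7.03 in No Storage, 6.65, 6.66 and 6.88 in SCS, and 6.97, 7.84 and 7.78 in NEVKP. Its NEVKP and SCS kidneys did not overlap, whereas those of the brighter probe set did.

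C1QC, which encodes the C chain, measured 8.62, 8.47 and 8.55 in No Storage. It measured 7.83, 7.45 and 8.43 in SCS and 8.36, 9.54 and 9.04 in NEVKP. The lowest kidney of all was SCS replicate 2, and SCS replicate 3 came within 0.12 of the No Storage mean. For each chain the order of group means was SCS, No Storage, NEVKP, and No Storage and NEVKP overlapped for each. NEVKP wholly above No Storage was found for 7.94% of probe sets.

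**Figure D1:**
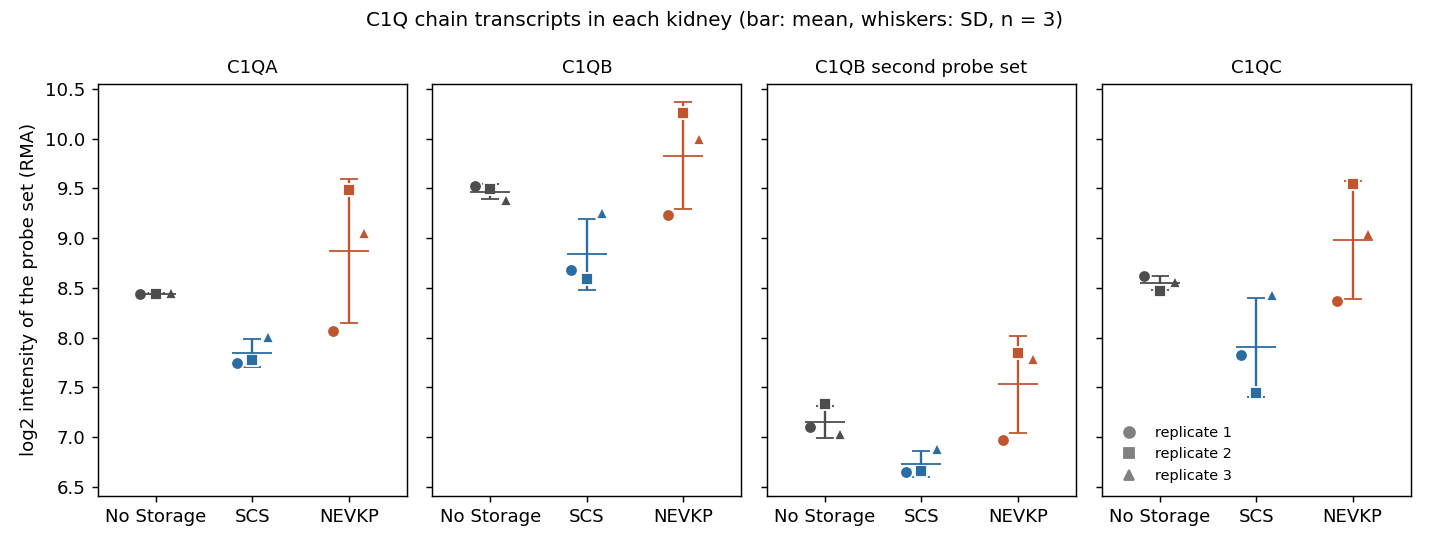
Log2 intensity (y axis) of C1QA, both C1QB probe sets and C1QC in each kidney, by group (x axis). Marker shape is the replicate number, the long bar the group mean and the whiskers the SD (n = 3). SCS kidneys lie below No Storage kidneys in every panel, and NEVKP replicates 2 and 3 lie above both groups while NEVKP replicate 1 does not.

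SCS set against No Storage shows how kidneys differed after cold storage from kidneys put back directly. C1QA differed by -0.60 (SE 0.29, 95% interval -1.24 to 0.04, limma adjusted p = 0.351), from 8.44 ± 0.0082 to 7.84 ± 0.14 (SD, n = 3). C1QB differed by -0.63 (SE 0.26, limma adjusted p = 0.278), from 9.47 ± 0.08 to 8.84 ± 0.36, which is 1.55-fold lower. C1QC differed by -0.65 (SE 0.30, limma adjusted p = 0.336), from 8.55 ± 0.07 to 7.90 ± 0.50. The second C1QB probe set differed by -0.42 (limma adjusted p = 0.385).

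No C1Q gene passed an adjusted p of 0.05 in this comparison, where 0.162% of the 19124 probe sets did. At an unadjusted p under 0.05, C1QB alone was lower (limma), and 7.79% of all probe sets were. For 3 of 3 chains the SCS kidneys lay wholly below the No Storage kidneys, as they did for 11.6% of probe sets. These 3 are chains of 1 protein with neighbouring genes, so they are not independent observations. Leaving out SCS replicate 2 gave -0.42 for C1QC, and leaving out SCS replicate 3 gave -0.91, both without passing.

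NEVKP was set against No Storage in the same way, for warm perfusion. C1QA differed by 0.43 (SE 0.29, limma adjusted p = 0.687), C1QB by 0.36 (SE 0.26, limma adjusted p = 0.705) and C1QC by 0.43 (SE 0.30, limma adjusted p = 0.698). The 95% intervals reached from -0.21 to 1.06 for C1QA, from -0.21 to 0.93 for C1QB and from -0.23 to 1.10 for C1QC. They cover no difference and also a doubling for C1QA and C1QC. None passed, and 0% of all probe sets did, with 1735 of 19124 (9.07%) at an unadjusted p under 0.05.

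NEVKP kidneys differed among themselves by more than No Storage kidneys did. The SD of C1QA was 0.72 in NEVKP, larger than that of 97.4% of probe sets in that group, and 0.0082 in No Storage, larger than that of 0.225%. For C1QB the SDs were 0.53 in NEVKP and 0.08 in No Storage, and for C1QC 0.59 and 0.07. The equality of these spreads was not tested. Single kidneys set the NEVKP values: without NEVKP replicate 2 the differences from No Storage were 0.12, 0.15 and 0.15 for C1QA, C1QB and C1QC. Without NEVKP replicate 1 they were 0.83, 0.66 and 0.74.

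The comparison of NEVKP with SCS contrasts both ways of keeping the organ for 8 h. C1QA was 1.03 higher in NEVKP (SE 0.29, 95% interval 0.39 to 1.66, limma adjusted p = 0.563), at 8.87 ± 0.72 against 7.84 ± 0.14 (SD, n = 3). C1QB was 0.99 higher (SE 0.26, 95% interval 0.42 to 1.56, limma adjusted p = 0.520), at 9.83 ± 0.53 against 8.84 ± 0.36. C1QC was 1.08 higher (SE 0.30, 95% interval 0.41 to 1.74, limma adjusted p = 0.563), at 8.98 ± 0.59 against 7.90 ± 0.50. On the linear scale these are 2.04-fold, 1.99-fold and 2.11-fold. The second C1QB probe set was 0.80 higher (SE 0.22, limma adjusted p = 0.563).

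In this comparison 0% of the 19124 probe sets passed an adjusted p of 0.05, so no C1Q gene could be called. At an unadjusted p under 0.05, 3 of 3 chains were higher in NEVKP (limma), as were 3.8% of probe sets, and 7.5% reached this level in either direction. C1QB ranked 107th by p, C1QC 154th and C1QA 163rd. The groups did not overlap for C1QA alone of the 3 chains, as was so in this direction for 5.01% of probe sets. Without both SCS replicate 2 and NEVKP replicate 2, an omission chosen after seeing the data, the differences were 0.69, 0.65 and 0.57 for C1QA, C1QB and C1QC.

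In the F test among the 3 groups, the limma adjusted p was 0.278 for C1QA, 0.248 for C1QB and 0.276 for C1QC, and 0.00523% of probe sets passed. At an unadjusted p under 0.05 in that test were 3 of 3 chains (limma) and 12.8% of probe sets. The comparisons with No Storage share its arrays, and the difference between NEVKP and SCS is the difference of the other two, so these are not separate lines of evidence. An SCS mean below and a NEVKP mean above No Storage was found for 12.3% of probe sets. In whole biopsies, fewer cells that express C1Q and less C1Q RNA per cell cannot be told apart.

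**Figure D2:**
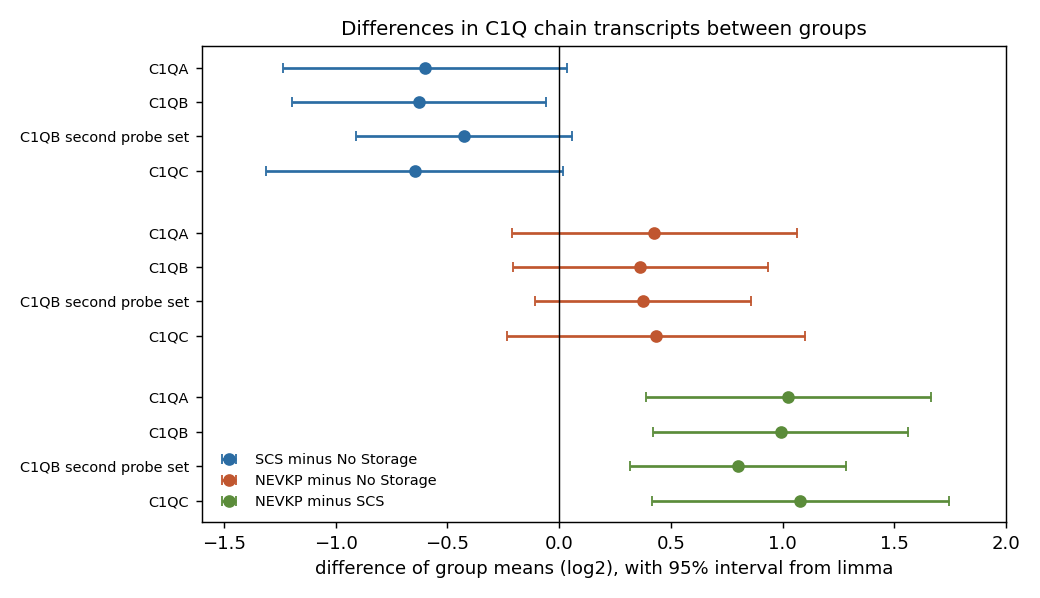
Difference of group means on the log2 scale (x axis) for each C1Q probe set (y axis) in the 3 comparisons, with the 95% interval from limma. The intervals for NEVKP minus SCS lie above 0, those for NEVKP minus No Storage span 0, and for SCS minus No Storage only that of the brighter C1QB probe set stays below 0. None passed after adjustment over all probe sets.

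The chains varied together from kidney to kidney. Across the 9 arrays Pearson r was 0.98 between C1QB and C1QC, 0.96 between C1QA and C1QB and 0.94 between C1QA and C1QC. The C1QB probe sets correlated with each other at 0.96. After subtraction of group means, r was 0.96, 0.91 and 0.85 for the same pairs of chains, so the shared variation was present inside the groups too. These values describe 9 arrays whose probe sets share RNA and array.

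The chains parted most in SCS replicates 2 and 3. Relative to the No Storage mean, SCS replicate 2 stood at -0.66 for C1QA, -0.87 for C1QB and -1.10 for C1QC. SCS replicate 3 stood at -0.44, -0.22 and -0.12, the opposite order. C1QC thus separated these kidneys by more than C1QA did. Averaged over the chains, the kidneys stood at -0.74, -0.88 and -0.26 in SCS and at -0.26, 0.94 and 0.54 in NEVKP relative to the No Storage mean, so that SCS replicate 3 and NEVKP replicate 1 were nearly alike.

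The partners of C1q in the C1 complex did not share the SCS values. C1R and C1S encode the proteases that C1q activates. C1S measured 8.51, 8.05 and 8.51 in No Storage, 8.46, 8.46 and 8.63 in SCS, and 8.52, 9.46 and 9.00 in NEVKP. NEVKP replicates 2 and 3, the kidneys with the highest C1Q values, were also highest for C1S, while SCS and No Storage overlapped. C1S differed by 0.16 between SCS and No Storage and by 0.64 between NEVKP and No Storage (SE 0.22, limma adjusted p = 0.462). C1R differed by 0.24 and 0.53 (SE 0.22, limma adjusted p = 0.522 for NEVKP). SERPING1, the inhibitor that removes C1r and C1s from C1q, differed by 0.34 and 0.62 (limma adjusted p = 0.692 and 0.603).

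C4A, a substrate of C1s, differed by -0.02 in SCS and -0.39 in NEVKP relative to No Storage (SE 0.44), and its lowest value, 7.02, was in NEVKP replicate 2. C5, which starts the lytic steps, was 0.74 higher in SCS (SE 0.17, limma adjusted p = 0.0905) and 0.29 higher in NEVKP. C6, a component of the lytic complex, differed by -0.78 in SCS and -0.68 in NEVKP, and C9, another, by -0.13 and -0.76. Of 10 measured genes of the list of C1 proteases and classical pathway, 0 passed the adjusted threshold in any comparison. At an unadjusted p under 0.05, 1 was higher and 1 lower in SCS, and 2 were higher and 1 lower in NEVKP, each relative to No Storage (limma). Over all probe sets the shares were 7.75% higher and 7.79% lower in SCS, and 4.67% higher and 4.4% lower in NEVKP. With 10 genes, 1 of 10 is close to the background. The 2 of 10 higher in NEVKP are a larger share, and a difference from the background was not tested. NEVKP lay wholly above No Storage for 2 of the 10, C1R and C1S, by a narrow margin, and wholly below it for 0. C1R and C1S, partners in 1 complex, were both highest in NEVKP replicate 2 (10.44 and 9.46), so they are not independent observations. Wholly above was found for 7.94% of all probe sets, and a difference from that share was not tested. The list medians were -0.01 for SCS and 0.08 for NEVKP, beside 0.00018 and -0.0070 over all genes.

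Of 9 measured complement regulators 0 passed. At an unadjusted p under 0.05 (limma) were 0 in SCS against No Storage, 1 higher and 1 lower in NEVKP against No Storage, and 1 higher in NEVKP against SCS, where 3.8% of all probe sets were higher. In NEVKP, C4BPA, a cofactor that inactivates C4b, differed by -0.93 and CD55, which breaks up convertases, by 0.50. CLU, a secreted chaperone that holds back the lytic complex, differed by 0.49 in SCS and 0.40 in NEVKP. VSIG4, a macrophage receptor for C3 fragments, differed by -0.23 in SCS and 0.35 in NEVKP, and was 0.58 higher in NEVKP than in SCS (limma adjusted p = 0.655). Of 5 measured genes of the lectin and alternative pathways 0 passed. CFP, the properdin that stabilises the alternative convertase, differed by 0.56 in SCS and 0.72 in NEVKP. MBL1, which encodes a mannose-binding lectin, differed by -0.09 and 0.04, CFD, the protease factor D, by -0.00085 and 0.03, and MASP1, a lectin pathway protease, by -0.17 and -0.09. MBL2, another mannose-binding lectin, was dim.

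Molecules that bind C1q or take up C1q-coated material were mixed. CD44, an adhesion receptor for hyaluronan, was 1.12 higher in SCS (SE 0.24, limma adjusted p = 0.0801) and 0.57 higher in NEVKP than in No Storage. CALR, the chaperone calreticulin that can bind the collagen-like stalk of C1q, differed by 0.40 (limma adjusted p = 0.159) and 0.18. MERTK, a receptor for the uptake of apoptotic cells, differed by -0.44 and -0.28, and the scavenger receptor gene STAB1 by 0.25 and 0.33. CD93, once described as a C1q receptor, differed by -0.01 and -0.14. MEGF10, an engulfment receptor that binds C1q, differed by -0.26 and 0.05, and its r with the C1Q mean over the 9 arrays was 0.81. Of 9 measured members of this list 0 passed, with list medians of -0.01 in SCS and 0.03 in NEVKP.

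Among 7 measured ligands of C1q, 0 passed. The small proteoglycan genes BGN and DCN differed by 0.77 and 0.65 in SCS and by 0.63 and 0.73 in NEVKP. PRELP, a related matrix protein, differed by 0.18 and 0.52, and APOE, the apolipoprotein, by 0.13 and 0.34. PTX3, a pentraxin made at sites of inflammation, differed by 0.22 and -0.0042.

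Of 18 other measured genes whose proteins carry a C1q-like domain, 0 passed. C1QTNF2 differed by 0.47 in SCS and 0.73 in NEVKP, the elastic fibre gene EMILIN1 by 0.43 and 0.46, the collagen gene COL8A1 by 0.68 and 0.72, and C1QTNF7 by -0.54 and -0.33. These 4 had the smallest F test p of the list, and none of them had opposite signs in SCS and NEVKP. An SCS mean below and a NEVKP mean above No Storage was found for 2 of the 18, MMRN1 and MMRN2, a share of 11.1% beside 12.3% of all probe sets.

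Of the factors known to act on C1Q transcription, SPI1, which encodes the myeloid factor PU.1, measured 6.39, 6.01 and 5.96 in No Storage. It measured 7.24, 7.33 and 6.89 in SCS and 6.88, 7.18 and 7.11 in NEVKP. No SCS or NEVKP kidney overlapped with No Storage, whereas SCS and NEVKP overlapped with each other. NEVKP wholly above No Storage was found for 7.94% of all probe sets, and the share for SCS wholly above is not given here. SPI1 differed by 1.03 in SCS (SE 0.17, limma adjusted p = 0.0513) and 0.93 in NEVKP (SE 0.17, limma adjusted p = 0.299). In SCS it therefore differed with the opposite sign to the C1Q chains. IRF1, an interferon-induced factor, differed by 0.54 and 0.81, CEBPB, a factor of myeloid activation, by 0.59 and 0.26, and NR1H3, the liver X receptor alpha, by 0.04 and -0.19. Of 7 measured factors 0 passed, and IRF8 had no named probe set here.

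Most macrophage genes had higher means in SCS and NEVKP than in No Storage, though none passed. Of 23 measured genes of monocytes and macrophages, 19 had a higher and 4 a lower mean in SCS than in No Storage, with a median of 0.19. In NEVKP 20 were higher and 3 lower, with a median of 0.36, and in NEVKP against SCS 18 were higher and 5 lower, with a median of 0.22. None passed the adjusted threshold in any of the 3 comparisons. At an unadjusted p under 0.05 (limma), 5 of 23 were higher and 2 lower in SCS than in No Storage. The shares of all probe sets were 7.75% higher and 7.79% lower (15.5% in either direction). In NEVKP 8 of 23 were higher and 2 lower at that level, beside 4.67% and 4.4% of all probe sets. The list mean of each kidney relative to No Storage ranged from -0.11 to 0.39 in SCS, from 0.27 to 0.46 in NEVKP and from -0.05 to 0.07 in No Storage. SCS replicate 2, at -0.11, lay below all No Storage kidneys. CD68 and CD163 had no named probe set here, and none of the 23 was dim.

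Single macrophage genes show the contrast with C1Q. TYROBP, a signalling adaptor of myeloid receptors, measured 7.25, 7.50 and 7.30 in No Storage, 8.08, 7.74 and 7.81 in SCS, and 8.04, 8.41 and 7.88 in NEVKP. All preserved kidneys lay above all No Storage kidneys. NEVKP lay wholly above No Storage for 10 and wholly below it for 2 of the 23 macrophage genes. Wholly above was found for 7.94% of all probe sets. The shares for NEVKP wholly below and for SCS wholly above No Storage are not given here, so those counts have no background to be read against. FCER1G, the common Fc receptor gamma chain, differed by 0.81 in SCS (limma adjusted p = 0.141) and 0.99 in NEVKP (limma adjusted p = 0.358). CD86, a costimulatory ligand, differed by 0.60 and 1.10, and CTSS, the protease cathepsin S, by 0.43 and 0.73.

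The receptor gene CSF1R, needed for macrophage survival, differed by 0.17 in SCS and 0.43 in NEVKP, and CD14, the monocyte coreceptor for endotoxin, by 0.13 and -0.02. MRC1, the mannose receptor, differed by 0.06 and 0.14. FOLR2, a folate receptor of resident macrophages, differed by -0.98 in SCS (SE 0.27, limma adjusted p = 0.128) and by -0.68 in NEVKP. LST1 differed by -0.67 and -0.59. Both were lower in SCS, like C1Q, but unlike C1Q they were also lower in NEVKP.

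The sign pattern of the C1Q genes, below No Storage in SCS and above it in NEVKP, was found for 2 of 23 macrophage genes, VSIG4 and CD5L, a share of 8.7%. Over all probe sets the share was 12.3%. CD5L encodes a secreted macrophage protein, and it differed by -0.11 and 0.08. No test was made of a difference between C1Q and the macrophage list, because these members were chosen with results known.

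**Figure D3:**
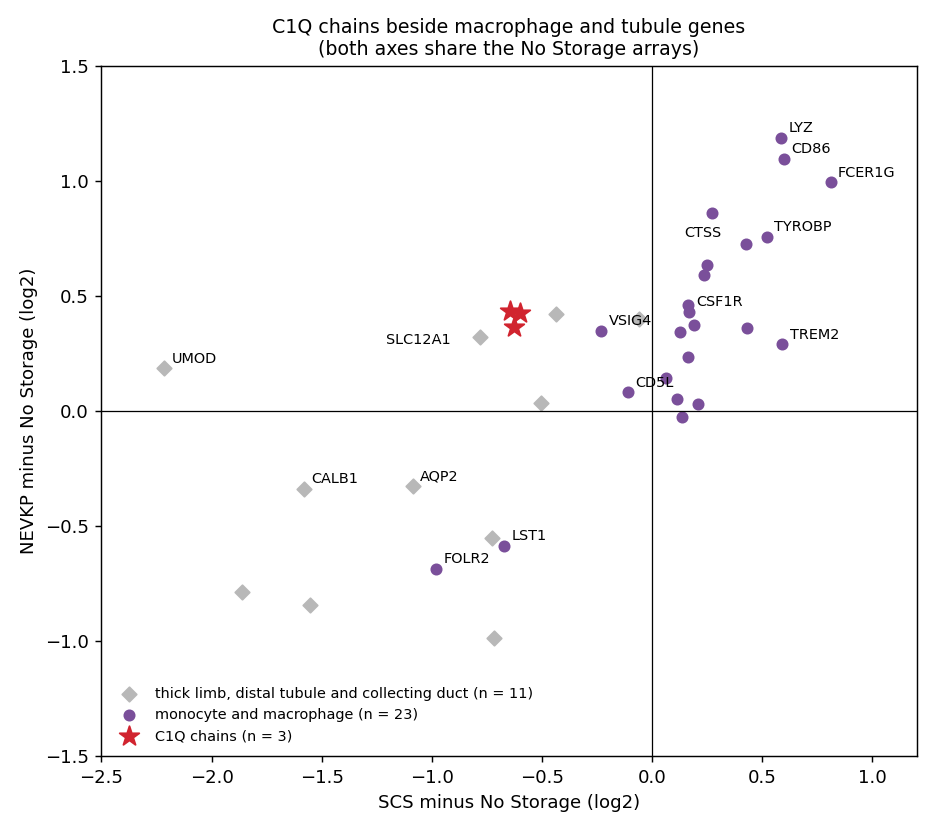
Log2 difference from No Storage in SCS (x axis) and in NEVKP (y axis) for the 3 C1Q chains, 23 monocyte and macrophage genes and 11 genes of thick limb, distal tubule and collecting duct. Each point is 1 gene, and both axes share the No Storage arrays. The C1Q chains lie together at the upper left, most macrophage genes at the upper right, and FOLR2 and LST1 at the lower left.

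Markers of other cell types were measured in the same kidneys. Of 4 measured dendritic cell genes 0 passed, with medians of 0.26 in SCS and 0.17 in NEVKP, and their list mean in NEVKP ranged from -0.15 to 0.93. The highest value comes from CD209, a lectin receptor, at 7.15 in NEVKP replicate 2 and between 3.74 and 5.16 in the other kidneys. XCR1, a chemokine receptor of cross-presenting dendritic cells, differed by 0.23 and 0.33, and FLT3, their growth factor receptor, by 0.29 and 0.01. Of 8 neutrophil genes, the list mean ranged from 0.46 to 0.84 in SCS, from 0.13 to 0.60 in NEVKP and from -0.25 to 0.20 in No Storage. The calgranulin gene S100A12 differed by 1.51 in SCS and 0.68 in NEVKP, and S100A8, S100A9 and MPO were dim. Of 14 T and NK cell genes, the mean ranged from -0.08 to 0.10 in SCS and from 0.20 to 0.24 in NEVKP. CD2, a T cell adhesion molecule, differed by 0.12 and 0.85.

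Of 7 B and plasma cell genes, 4 had a higher and 3 a lower mean than No Storage in SCS and likewise in NEVKP, with medians of 0.04 and 0.26. JCHAIN, the joining chain of polymeric antibody, differed by 0.68 in SCS and 1.37 in NEVKP (SE 0.48 for each, limma adjusted p = 0.555 and 0.456), and TNFRSF17, a receptor of plasma cells, by -0.31 and -0.29. Of 5 Fc receptor genes, FCGR2B, the inhibitory receptor for IgG, differed by 0.28 and 0.43, and FCGR1A, the high-affinity receptor, by 0.23 and 0.59. For 11 fibroblast and mesangium genes the list mean ranged from 0.42 to 0.75 in SCS and from 0.30 to 0.72 in NEVKP, and for 7 endothelial genes from -0.27 to 0.12 and from -0.53 to 0.11. For 10 proximal tubule genes the mean ranged from -0.90 to -0.35 in SCS and from -0.95 to -0.11 in NEVKP. In all these lists 0 members passed the adjusted threshold in any comparison, and the part of these cells in the C1Q values was not tested.

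Of the lists compared, that of thick limb, distal tubule and collecting duct had the highest median r with the C1Q mean over the 9 arrays. After subtraction of group means its median r was 0.52, again the highest, though close to that of the next lists (genes not dim). The median was 0.49 for the C1q ligands, 0.49 for the C1 proteases and classical pathway and 0.45 for the neutrophil list. In every other list it was 0.23 or lower, with 0.14 for the macrophage list and -0.41 for the proximal tubule list. Against No Storage, the median difference of this list matched C1Q in sign in SCS but not in NEVKP, and it matched C1Q in NEVKP against SCS. Relative to No Storage the median was -0.78 in SCS, with 11 of 11 genes lower, 8 of them at an unadjusted p under 0.05 (limma). In NEVKP the median was -0.33, with 6 of 11 lower and 4 of them at an unadjusted p under 0.05 (limma). Over all probe sets the shares lower at that level were 7.79% in SCS and 4.4% in NEVKP. In NEVKP against SCS the median was 0.76, with 10 of 11 genes higher and 1 lower. At an unadjusted p under 0.05 (limma), 6 of 11 were higher in that comparison, beside 3.8% of all probe sets. SCS lay wholly below No Storage for 9 of 11, beside 11.6% of all probe sets. The list mean ranged from -1.34 to -0.71 in SCS, from -0.56 to 0.19 in NEVKP and from -0.11 to 0.15 in No Storage. UMOD, the thick limb protein uromodulin, measured 12.66, 11.64 and 12.30 in No Storage, 10.09, 8.84 and 11.03 in SCS, and 11.93, 12.96 and 12.26 in NEVKP. SCS replicate 2 was lowest and NEVKP replicate 2 highest, as for the mean of the C1Q chains. Over the 9 arrays r with the C1Q mean was 0.86 for UMOD and 0.89 for SLC12A1, the sodium, potassium and chloride carrier of that segment. It was 0.80 for the water channel gene AQP2 and -0.15 for SCNN1G, a sodium channel subunit, and the median over the 11 genes was 0.62. The median was 0.24 for the macrophage list and 0.03 over the 9606 genes considered. Of the 11 genes, 5 lay below No Storage in SCS and above it in NEVKP, a share of 45.5% beside 12.3% of all probe sets. These correlations describe whole biopsies in which every gene shares the array, and a link between the 2 lists was not tested.

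**Figure D4:**
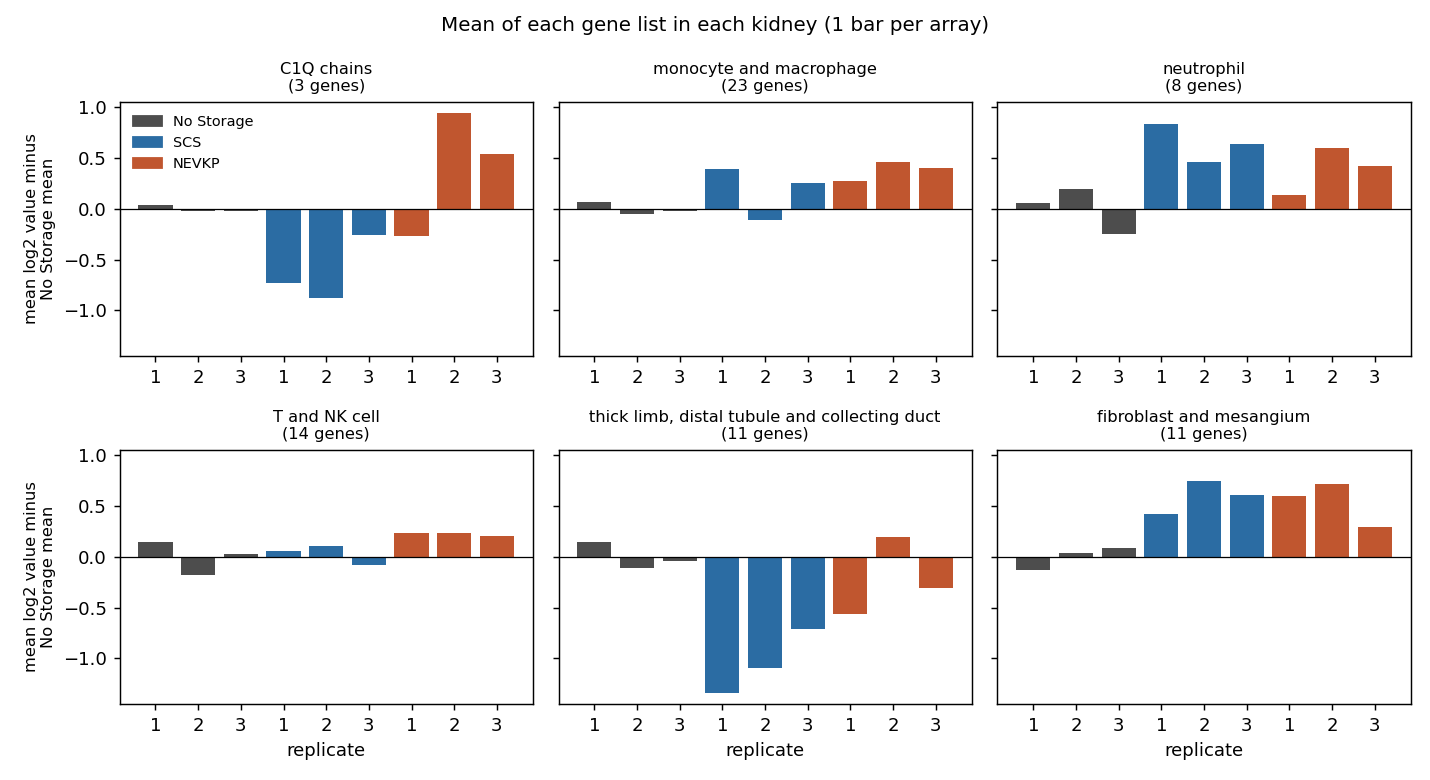
Mean log2 value of the genes of each list in each kidney, relative to the No Storage mean (y axis), with 1 bar per array by replicate number (x axis). C1Q chains are below 0 in the 3 SCS kidneys and NEVKP replicate 1 and above it in NEVKP replicates 2 and 3. The macrophage list is above 0 in all preserved kidneys except SCS replicate 2.

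The genes most like C1Q were taken as those of highest Pearson r with the mean of the 3 chains among 9606 genes. These were the named genes that were not dim, without the chains themselves and without symbols made of a locus number. Over the 9 arrays NEK8, a kinase of the primary cilium, came first (r = 0.97). NEK8 measured 5.51, 5.45 and 5.49 in No Storage, 5.22, 5.16 and 5.45 in SCS, and 5.28, 5.76 and 5.61 in NEVKP, a narrower range than that of any C1Q chain. LAYN, a hyaluronan receptor, followed (0.96), then DLK1 (0.94), the calcium pump regulator PLN (0.94) and TBC1D9 (0.94). NRK, DIXDC1, SUSD4, HEY2 and BBS10 had r of 0.91 each. SUSD4 encodes a complement inhibitor, and it differed by -0.28 in SCS and 0.25 in NEVKP. The range of DLK1 was wide, with 5.75, 5.52 and 5.71 in No Storage, 4.70, 5.10 and 5.62 in SCS, and 5.68, 6.64 and 6.61 in NEVKP.

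With group means subtracted, NEK8 was again first (r = 1.00 when rounded, 0.995), followed by CLPTM1, SLC2A4, COPZ1, TNS4, LAYN, SLC35F1, ESD, DYNLT1 and ASB15 (0.93 to 0.97). Only NEK8 and LAYN were in both sets of 10. The sets depended on single kidneys: without NEVKP replicate 3, 1 of the 10 genes found over all arrays was still among the 10 highest. No gene of the macrophage list was in either set. The macrophage gene with the highest r over the 9 arrays was CD5L (0.74, rank 296), which had an r of 0.82 within groups. Within groups the highest was LYZ, the lysozyme gene, with an r of 0.91. LYZ was thus among the 26 of 9606 genes with an r over 0.9 within groups. These values of r were the highest of many over 9 arrays, so they are given as a description with no p.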

How the data were processed

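RNA of 9 kidney biopsies was hybridised as biotin-labelled cRNA by an Affymetrix protocol, per the labels' protocols. The authors used RMA to obtain 1 log2 intensity for each probe set and array, and limma 3.34.14 is also named, per the submitters' processing notes. RMA corrects background, scales arrays to each other, which removes shifts common to a whole array, and summarises each probe set. The array type, filters and genome build were not given in the sources used here.

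Of 19124 probe sets, 13323 had 1 gene symbol in the platform annotation, 357 had several and the rest none. Symbol and gene ID disagreed with the RefSeq table for 7, which left 13316 named probe sets.

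R 4.3.3 and limma 3.58.1 (lmFit, eBayes) gave the group differences, from a fit on all probe sets and all 9 arrays, with 6 residual and 4.12 prior degrees of freedom. P-values were adjusted over all probe sets by the Benjamini-Hochberg method, with a threshold of 0.05. Every adjusted p in the text is limma's. The steps were tested on simulated data.

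The members and the lists were chosen with earlier results of these data known. Named genes were the C1Q chains, genes fixed by role, up to 4 per list by F test p, and 10 by r. Some members outside this rule are named after their values were seen. Alternatives were a replicate block, a trended robust prior, array weights, omission of dim probe sets, centring, fits on the compared groups alone, other C1QB probe sets and omission of arrays.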

Additional observations from a re-analysis of the deposited data

How the results depend on the processing

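The differences of C1QA, C1QB and C1QC kept their direction and stayed short of the threshold in all 150 values computed for the 9 gene and comparison pairs. Over the alternatives, C1QA, C1QB and C1QC ranged from -0.68 to -0.55, -0.83 to -0.42 and -0.91 to -0.42 in SCS against No Storage. The ranges were 0.12 to 0.83, 0.15 to 0.66 and 0.15 to 0.74 in NEVKP against No Storage, and 0.69 to 1.43, 0.65 to 1.29 and 0.57 to 1.39 in NEVKP against SCS. The lowest limma adjusted p of any of them was 0.0597, for C1QA in NEVKP against SCS without NEVKP replicate 1, and 0.0810 for C1QA in SCS against No Storage fitted on those groups alone. The F test called 0 of the 3 chains in each alternative for which it was run, which leaves out the fits on compared groups alone and the other C1QB probe set choices.

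Probe sets passing in SCS against No Storage numbered 31, but 83 with a trended robust prior, 93 with array weights, 82 without dim probe sets, 49 with centred arrays, 0 to 158 without single arrays, and 0 without both SCS replicate 2 and NEVKP replicate 2. In NEVKP against SCS the count of 0 became 1 with array weights and 0 to 1 without single arrays. In NEVKP against No Storage it was 0 throughout.

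Of the 10 genes most like C1Q over all arrays, 6 stayed with C1QA alone, 5 with C1QC alone, 1 to 7 without single arrays and 1 without the 2 arrays of lowest weight. Within groups 4, 5 and 4 stayed with C1QA, C1QB and C1QC alone, 2 to 7 without single arrays and 1 without those 2.

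Same-numbered kidneys came from different animals, and their deviations from group means correlated at -0.14 to 0.13. With the replicate number as a block, the limma adjusted p for NEVKP against SCS was 0.612 for C1QA and C1QB and 0.628 for C1QC, and 27 probe sets passed in SCS against No Storage. With 3 animals per group, the intervals on the differences of C1QA, C1QC and the brighter C1QB probe set are over 1 log2 unit wide.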
